A study of Mus musculus with 10 samples.

Results

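The mitochondrial ribosomal proteins were described on arrays of cerebral cortex from 10 male mice, of which the labels call 5 *p97FE65* null and 5 *p97FE65* wild type. Members were the probe sets annotated to a single gene whose symbol starts with Mrpl or Mrps followed by a digit, without Mrpl48 and Mrpl17, and each gene was represented by its probe set with the brightest mean over the 10 arrays. The rule found 123 probe sets of 72 genes, 45 of them Mrpl and 27 Mrps, among 12393 genes measured in all. Another 3 probe sets name such a gene together with a second gene and were left out. The rule uses gene names, and measured brightness chose the probe set of each gene.

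All mice were 6 months old, and each array carried the RNA of 1 mouse. The study describes them as 5 littermate pairs of null and wild type mice, after 10 generations of backcrossing to C57Bl/6J. The null allele, which removes the full-length form of the adaptor protein FE65 (gene Apbb1) from every cell and leaves shorter forms, was made in R1 embryonic stem cells of another strain, and chromosome 7 around the allele can still carry DNA of that strain. The question of the study was which cortical transcripts differ when full-length FE65 is missing. Neither Apbb1 probe set reads the deleted exon, and their levels cannot show the deletion. The direction under the labels is opposite to that of the study's tables: the receptor gene Gprc5b, listed there as higher in null, had a signal 2.35-fold lower on null-labelled arrays. The Apbb1 probe sets, listed there as slightly lower in null, also ran the other way. Their differences, null minus wild type, were 0.26 (SE 0.06, no overlap between groups) and 0.11 (SE 0.10, groups overlapping). As folds these Apbb1 differences are 1.19 and 1.08. The study printed the same sizes for Apbb1 and for Gprc5b, each in the opposite direction. Its RT-PCR over the region of this Gprc5b probe set also found more product in null forebrains. Whether the labels were exchanged between the groups was not tested, since no array value shows the deletion itself. With exchanged labels, every difference given here would change sign. The arrays are named here by their labels and numbers (wild type 1 to 5, null 1 to 5).

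Mitochondria keep a small genome of their own, whose few messenger RNAs encode core subunits of the respiratory chain and the ATP synthase. These are translated inside the organelle by a separate ribosome. Its RNAs come from the mitochondrial genome, while all of its proteins are encoded in the nucleus, made in the cytosol and imported. Many of the proteins descend from bacterial ribosomal proteins and others were added during mitochondrial evolution. Cortical neurons depend heavily on respiration, and inherited defects of several of these proteins cause disease of the brain and heart.

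The unit throughout is GC-RMA expression on the log2 scale, in which a difference of 1 is a 2-fold difference in signal. A difference is always labelled null minus labelled wild type. Signals of different probe sets depend on their probes as well as on the transcript, so genes are not ranked by abundance here. Array medians lay between 3.01 and 3.14, and the arrays correlated with each other at 0.994 to 0.999 over all probe sets. Markers of excitatory neurons (3 of 5 measured) had a median difference of -0.33 and those of oligodendrocytes (4 of 5) of -0.20. The 8 other marker lists had medians between -0.11 and 0.06. Of the measured markers of excitatory neurons, Neurod6 and Tbr1 had means of 9.08 and 7.86 in wild type, and Camk2a had 4.20. Of the measured striatum and hippocampus markers, Drd2 (1.90), Prox1 (1.68) and Lct (2.76) were low on the scale whereas Rgs9 (6.99) and Wfs1 (9.32) were not. Of the choroid plexus markers, Kl (1.83) and Folr1 (2.40) were low, and Ttr read 4.99 to 7.84 in wild type and 5.08 to 6.75 in null. The 3′ minus 5′ signal of Gapdh, a sign of RNA integrity, averaged 0.111 ± 0.146 (SD, n = 5) in wild type and 0.0323 ± 0.0712 in null (exact permutation p = 0.325, two-sided). For Actb these values were 0.144 ± 0.139 and 0.0973 ± 0.172 (exact permutation p = 0.643). In bulk tissue, fewer cells of a type and less RNA per cell cannot be told apart.

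The mitochondrial ribosomal proteins had much the same expression under both labels. Of the 72 genes, 31 had a higher and 41 a lower mean in the arrays labelled null, and the median difference was -0.02, against -0.00206 over all genes. The largest difference was 0.30 in size, that of Mrps24, and 50 of the 72 genes (69.4%) had group means within 0.1 of each other, against 75.7% of all genes. The difference exceeded the pooled standard deviation within groups in 8 genes and stayed within it in 64. The median of that standard deviation was 0.155. To set dim probe sets aside, the 52 genes with a mean signal of at least 5 were also read alone. Of these, 19 were higher and 33 lower, with a median difference of -0.03. The 4921 genes of such signal had a median difference of -0.04, with 1716 higher and 3205 lower. At this signal the order of the shares within 0.1 was reversed, at 67.3% of the members against 58.4% of all genes.

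By limma with Benjamini-Hochberg adjustment over 22626 probe sets, no member passed an adjusted p of 0.05, a count of 0, which equals the count over all genes (0%). The lowest adjusted p of a member was 0.999. At an unadjusted limma p under 0.05, 2 members were higher in the arrays labelled null, Mrpl14 and Mrpl46, which is 2.78% of the members in either direction. Of all genes, 1.33% were higher at this threshold. Not a single member was lower at it, a count of 0, against 2.61% of all genes. The groups did not overlap in 1 member, Mrpl14, which was higher, and over all genes 0.315% did not overlap with the null arrays higher and 0.371% with them lower. The methods' t-test called the same 2 members at an unadjusted p under 0.05 and 0 after Benjamini-Hochberg adjustment.

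**Figure D1:**
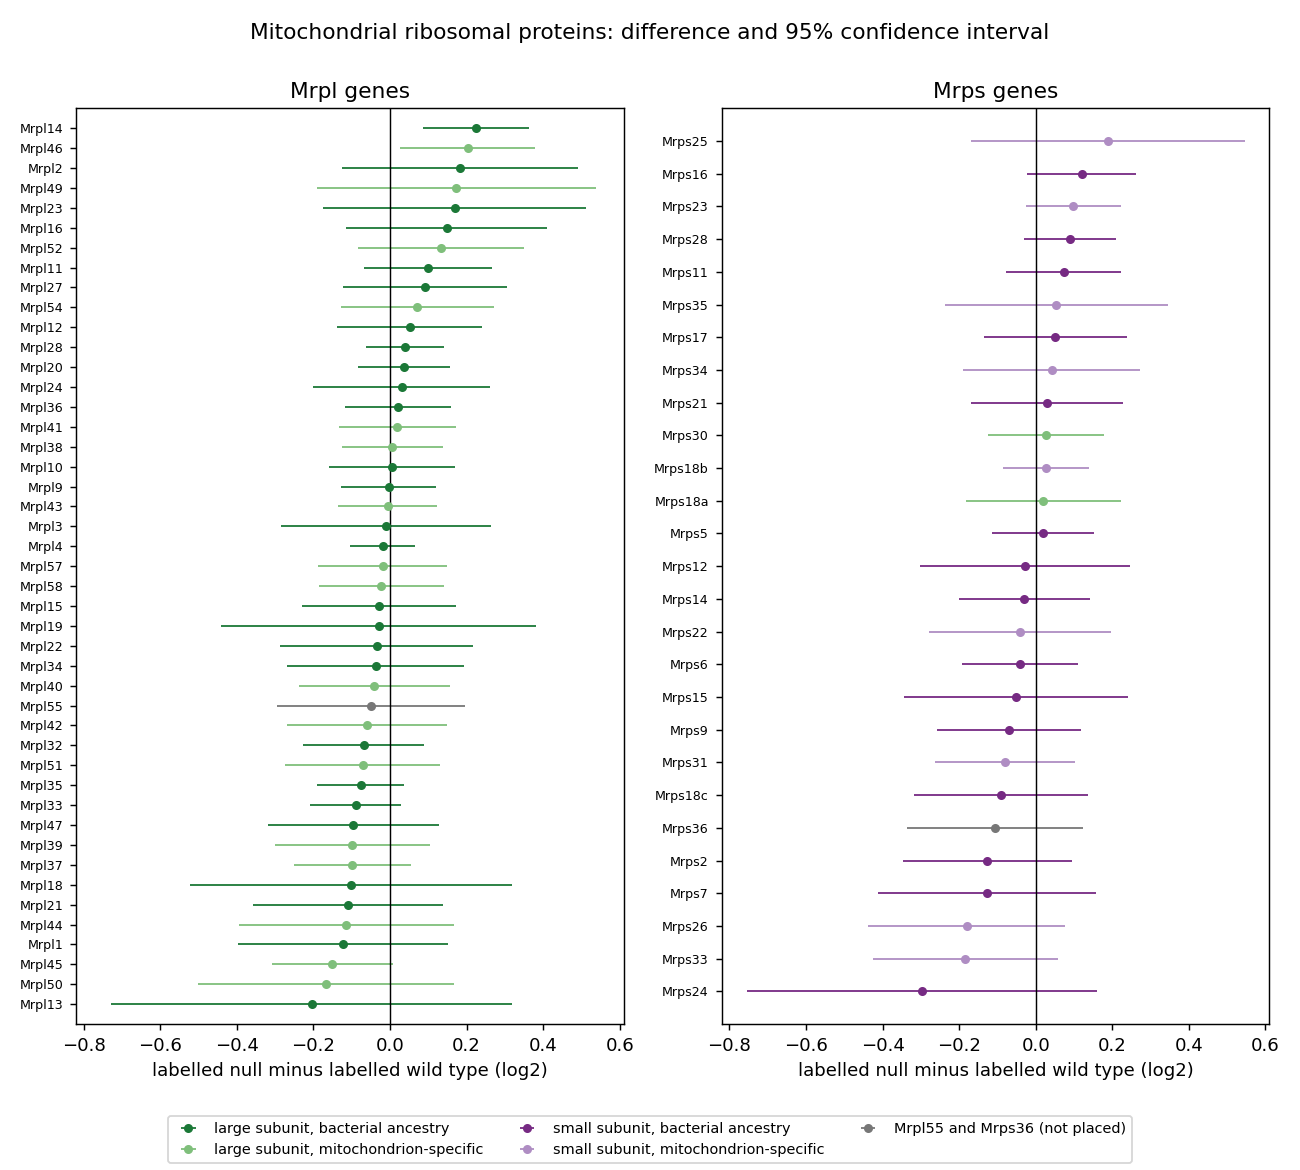
Difference in expression (labelled null minus labelled wild type, log2, x axis) of each of the 72 mitochondrial ribosomal protein genes, with Mrpl genes on the left and Mrps genes on the right. Points are differences of group means (n = 5 each), bars are 95% confidence intervals from limma, and colours give the subunit and origin. The intervals of Mrpl14 and Mrpl46 lie above 0 and all others cross 0.

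The ribosome's parts were similar in this respect. Its large subunit, which joins amino acids and carries the exit tunnel of the new chain, was represented by 46 genes, Mrps18a and Mrps30 included, since the proteins of both sit in the large subunit in spite of their names. Of these, 20 were higher and 26 lower, with a median difference of -0.01. The small subunit, which binds the messenger RNA and decodes it, had 24 genes, 11 higher and 13 lower, with a median of -0.03. Among the 27 large subunit proteins of bacterial descent, 12 were higher and 15 lower (median -0.01), and among the 19 specific to mitochondria, 8 were higher and 11 lower (median -0.02). The 15 small subunit proteins of bacterial descent comprised 6 higher and 9 lower (median -0.03), and the 9 specific ones 5 higher and 4 lower (median 0.03). Mrpl55 and Mrps36 were not placed in a class, and both had a difference below 0.

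**Figure D2:**
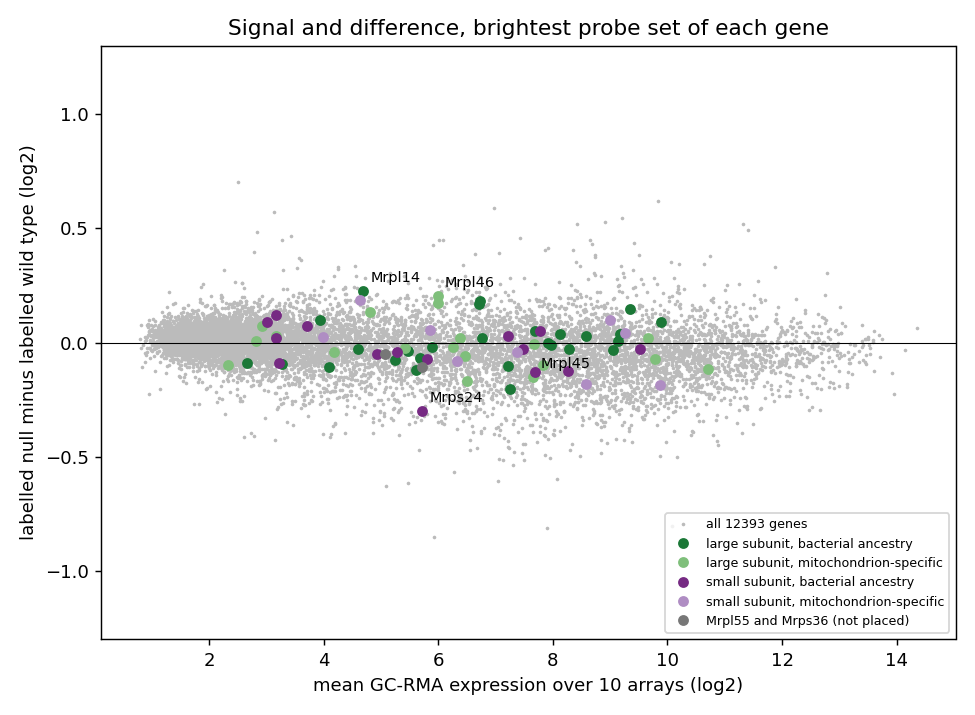
Difference (labelled null minus labelled wild type, log2, y axis) against mean expression over the 10 arrays (log2, x axis) for the brightest probe set of each of the 12393 genes (grey) and of the 72 mitochondrial ribosomal proteins (coloured by subunit and origin). The members lie between -0.30 and 0.23, inside the cloud of all genes, at mean signals from 2.34 to 10.71.

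Mrpl14 encodes a large subunit protein of bacterial descent that lies at the interface with the small subunit. Probe set 1451307_at, its sole one here, read 4.66, 4.57, 4.66, 4.52 and 4.46 in wild type 1 to 5 and 4.80, 4.97, 4.70, 4.81 and 4.72 in null 1 to 5. All null arrays were above all wild type arrays, though the closest values, 4.66 and 4.70, were near each other. The mean was 4.57 ± 0.09 (SD, n = 5) in wild type and 4.80 ± 0.11 in null, a difference of 0.23 (SE 0.06, 95% interval 0.09 to 0.36), or 1.17-fold, with an unadjusted limma p of 0.00435 and an adjusted p of 0.999. The exact permutation test gave p = 0.00794 (two-sided), the smallest that 5 arrays against 5 allow. Any gene without overlap gets this value, so it adds nothing to the absence of overlap. Mrpl14 also had the smallest limma p of all members, and the permutation p was not adjusted for that choice. Its signal was dim, and after median centring or quantile normalization of the arrays the groups overlapped, while the difference stayed at 0.22 and 0.25. The difference lay between 0.18 and 0.25 when any 1 array was left out.

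Mrpl46 encodes a large subunit protein specific to mitochondria. Its probe set 1449004_at read 6.11, 5.69, 5.89, 5.75 and 6.00 in wild type 1 to 5 and 5.96, 6.15, 6.12, 6.08 and 6.14 in null 1 to 5. Wild type 1 and wild type 5 fell among the null values, so the groups overlapped, and the null arrays were the closer together (SD 0.08 against 0.17). The difference was 0.20 (SE 0.08, 95% interval 0.03 to 0.38), or 1.15-fold, with an unadjusted limma p of 0.0279 and an exact permutation p of 0.0556 (two-sided). The limma p was 0.0569 after median centring of the arrays, and 0.0542 to 0.0697 when wild type 2, wild type 4, null 2, null 3 or null 5 was left out.

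**Figure D3:**
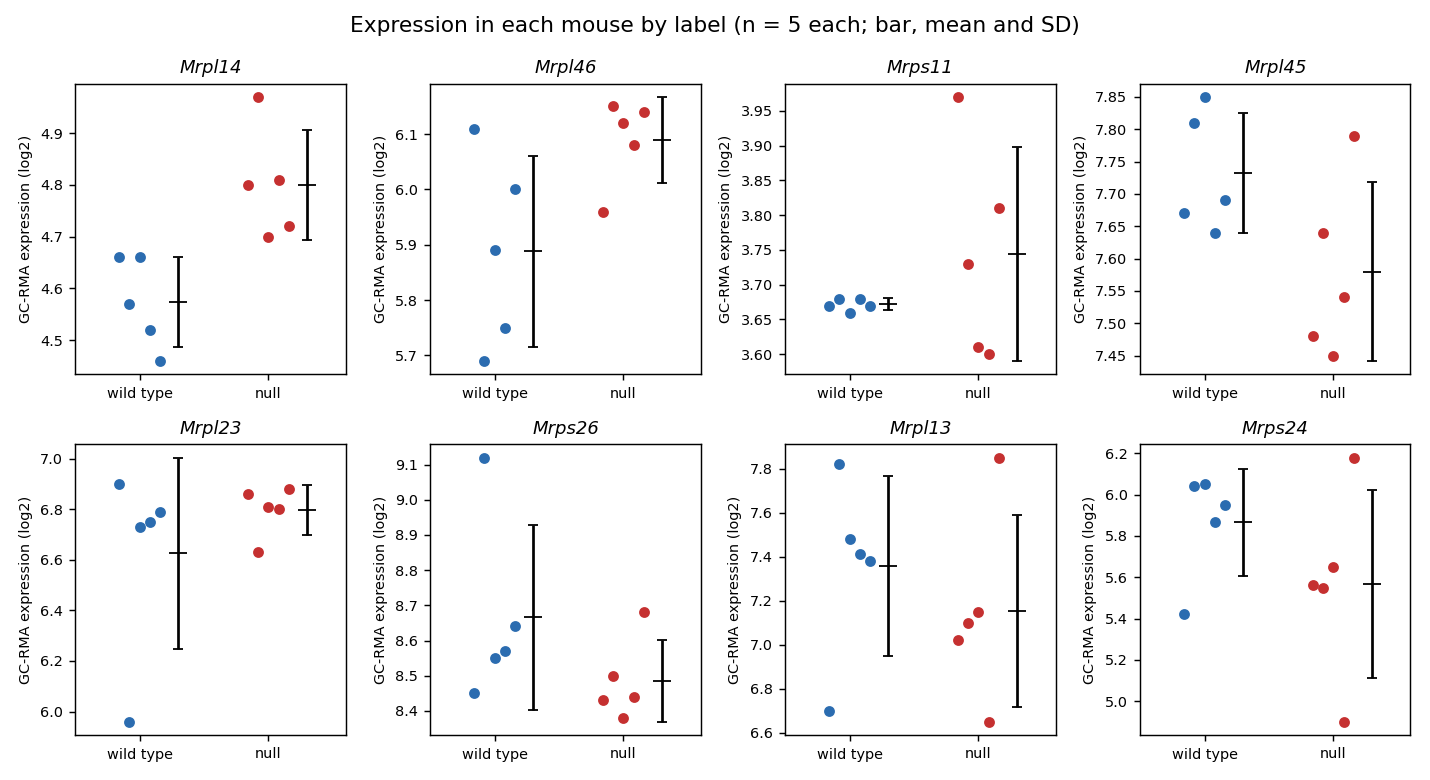
GC-RMA expression (log2, y axis) of 8 mitochondrial ribosomal protein genes in each mouse, by label (x axis); points are arrays (n = 5 per label) and bars show mean and SD, with a separate y scale for each gene. The null points lie wholly above the wild type points for Mrpl14 alone. Wild type 2 stands apart in Mrpl23 (5.96) and Mrps26 (9.12), and in Mrps24 null 4 (4.90) and null 5 (6.18) mark the ends of the range.

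The gene of Mrpl46 lies head to head with that of Mrps11, a small subunit protein of bacterial descent. In the RefSeq annotation of assembly GRCm38.p6 the start sites of the genes are 42 bases apart on chromosome 7, on opposite strands. Their promoter windows, each from 250 bases before to 50 bases after the start, share chr7:78783040-78783180, a stretch of 141 bases. The windows are shown because those of Mrpl46 and Mrps11 overlap, and that of Mrpl14 because it is the member without overlap between groups. All are read 5′ to 3′ on the gene's own strand. Capitals mark matches, on either strand, to the letters GCGCANGCG (nuclear respiratory factor 1, NRF-1), CCGGAAG (ETS family), AAGATGGCG (YY1) and TATAAA (the letters of a TATA box), factors or elements known from promoters of nuclear genes for mitochondria or from promoters in general.
Mrpl14, chr17:45686099-45686398, plus strand: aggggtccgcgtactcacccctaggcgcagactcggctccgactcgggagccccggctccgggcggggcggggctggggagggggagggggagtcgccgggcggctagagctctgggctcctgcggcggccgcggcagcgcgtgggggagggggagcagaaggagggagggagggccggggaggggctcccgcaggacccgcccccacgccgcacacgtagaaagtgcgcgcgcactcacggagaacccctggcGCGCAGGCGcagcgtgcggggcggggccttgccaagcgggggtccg
Mrpl46, chr7:78783040-78783339, minus strand: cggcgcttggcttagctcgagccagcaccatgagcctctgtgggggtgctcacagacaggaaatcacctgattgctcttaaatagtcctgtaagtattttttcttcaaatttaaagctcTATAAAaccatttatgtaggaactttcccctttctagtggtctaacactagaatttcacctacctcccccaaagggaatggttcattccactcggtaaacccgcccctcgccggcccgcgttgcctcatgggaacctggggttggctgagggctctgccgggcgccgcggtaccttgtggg
Mrps11, chr7:78782881-78783180, plus strand: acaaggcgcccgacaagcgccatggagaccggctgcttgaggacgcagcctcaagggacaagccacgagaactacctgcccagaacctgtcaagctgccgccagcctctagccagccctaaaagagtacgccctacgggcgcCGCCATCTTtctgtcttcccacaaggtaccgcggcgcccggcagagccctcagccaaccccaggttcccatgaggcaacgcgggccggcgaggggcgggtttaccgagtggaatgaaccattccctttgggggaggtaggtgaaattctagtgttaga
The capitals are an NRF-1 match in Mrpl14, a TATAAA match in Mrpl46 and a YY1 match on the opposite strand in Mrps11. Neither of the latter lies in the shared stretch. A match of letters is a description and no site of binding was measured.

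Mrps11 did not follow Mrpl46 in every array. Its probe set 1460195_at read 3.67, 3.68, 3.66, 3.68 and 3.67 in wild type 1 to 5, and 3.97, 3.73, 3.61, 3.60 and 3.81 in null 1 to 5. The wild type values were nearly identical and at a dim signal, and the null values lay on both sides of them. The difference was 0.07 (SE 0.07, 95% interval -0.08 to 0.22). A second, dimmer Mrps11 probe set had a difference of -0.01.

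Mrps12, the counterpart of the bacterial protein at the decoding centre, and Mrpl23, a large subunit protein near the tunnel exit, are the other members on chromosome 7. In the order of the 958 measured genes of that chromosome, Mrps12 was number 237, Mrpl46 495, Mrps11 496 and Mrpl23 928, with Apbb1 at 648 and Gprc5b at 711. Mrpl46 lay 28 genes before Iqgap1 and 36 before Homer2, on the side away from Apbb1 and Gprc5b. Whether the DNA of the other strain, found by the study at Homer2, reaches Mrpl46 was not tested. The measured neighbour of Mrpl46 on the side away from Mrps11 is the neurotrophin receptor gene Ntrk3. Ntrk3 had a difference of -0.41 (SE 0.11), opposite in sign to that of Mrpl46, with no overlap between groups. For Mrps12 the difference was -0.03 (SE 0.12). Mrpl23 read 6.90, 5.96, 6.73, 6.75 and 6.79 in wild type 1 to 5 and 6.86, 6.63, 6.81, 6.80 and 6.88 in null 1 to 5. Wild type 2 alone was far below the rest, and the difference of 0.17 had an SE of 0.16.

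The next members by p were Mrpl45 and Mrps16. Mrpl45, a protein specific to mitochondria that sits at the tunnel exit and anchors the ribosome at the inner membrane, read 7.67, 7.81, 7.85, 7.64 and 7.69 in wild type 1 to 5 and 7.48, 7.64, 7.45, 7.54 and 7.79 in null 1 to 5. Null 5 fell among the wild type values, null 2 was level with the lowest of them, and the other null arrays lay below. Its difference was -0.15 (SE 0.07, 95% interval -0.31 to 0.01, 1.11-fold). Mrps16, a small subunit protein of bacterial descent, had dim values of 3.05 to 3.19 in wild type and 3.07 to 3.43 in null, and a difference of 0.12 (SE 0.06).

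Below these, no member had a limma p under 0.1. Among the small subunit proteins specific to mitochondria, Mrps23 had a difference of 0.10 (SE 0.06), Mrps33 of -0.18 (SE 0.11) and Mrps26 of -0.18 (SE 0.12). Mrps33 read 9.92, 10.04, 9.81, 10.01 and 10.04 in wild type 1 to 5 and 9.74, 9.79, 9.88, 9.40 and 10.09 in null 1 to 5, so that null 4 was the lowest and null 5 the highest of all arrays. Mrps26 read 9.12 in wild type 2 and 8.38 to 8.68 in the other arrays of both labels. Mrpl33 (-0.09, SE 0.05), Mrpl35 (-0.08, SE 0.05) and Mrps28 (0.09, SE 0.05), all of bacterial descent, completed the 10 smallest p-values, each with overlapping groups.

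The 4 brightest members, Mrpl44, Mrpl27, Mrps33 (given above) and Mrpl51, had differences from -0.18 to 0.09. Mrpl44, a protein with the fold of an RNA-cutting enzyme, had the brightest mean of all members and a difference of -0.11 (SE 0.13), and its values ran from 10.47 to 11.12 in wild type and from 10.31 to 10.81 in null. Mrpl27, whose bacterial counterpart reaches the centre where peptide bonds form, had a difference of 0.09 (SE 0.10). Mrpl51, specific to mitochondria, read 9.73 to 9.92 in wild type. In null it read 9.63, 9.67, 9.74 and 9.62 in arrays 1 to 4 and 10.10 in null 5, and its difference was -0.07 (SE 0.09). The dimmest members, Mrpl37, Mrpl33, Mrpl38 and Mrpl54, had mean signals from 2.34 to 2.93 and differences from -0.10 to 0.07.

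How closely the mice of a group agreed varied about 10-fold among members with a mean of at least 5. Mrpl4, whose bacterial counterpart lines the exit tunnel, was the steadiest, with values of 5.83 to 5.93 in wild type and 5.84 to 5.92 in null, a pooled SD of 0.04 and a difference of -0.02 (95% interval -0.10 to 0.07). Mrpl28 (pooled SD 0.06) and Mrpl35 (0.07) came next. At the other end stood Mrpl13, of bacterial descent, which read 6.70, 7.82, 7.48, 7.41 and 7.38 in wild type 1 to 5 and 7.02, 7.10, 7.15, 6.65 and 7.85 in null 1 to 5. Each label thus held an array near 6.7 and one near 7.8, and the interval of its difference of -0.20 ran from -0.73 to 0.32. Mrps24, a small subunit protein of bacterial descent, read 5.42, 6.04, 6.05, 5.87 and 5.95 in wild type and 5.56, 5.55, 5.65, 4.90 and 6.18 in null. Null 5 was its highest array, null 4 its lowest, and the difference of -0.30 had an SE of 0.21. Mrpl18 (pooled SD 0.34, difference -0.10) was likewise lowest in null 4, at 6.67, and highest in null 5, at 7.81.

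The Mrps18 genes encode a small family of related proteins. Mrps18a and Mrps18b were counted above as specific to mitochondria, although they are related to Mrps18c, which was counted as of bacterial descent. Mrps18a, in the large subunit, had a difference of 0.02 (SE 0.09, 95% interval -0.18 to 0.22). Mrps18b, in the small subunit, had one of 0.03 (SE 0.05, interval -0.09 to 0.14), and Mrps18c, also in the small subunit, one of -0.09 (SE 0.10, interval -0.32 to 0.14). The groups of all 3 genes overlapped.

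Other probe sets of the same genes were mostly dim. Of the members, 41 had 1 probe set and 31 had several, up to 7 in Mrpl15. Among the 51 probe sets that were not the brightest of their gene, 21 had the sign of the brightest one, 0 had an unadjusted limma p under 0.05, and 41 had a mean signal under 5. Mrps24 was the 1 member with probe sets of opposite sign more than 0.3 apart, at -0.30 and 0.09, and both are of a type (_s_at) whose probes can match more than 1 transcript. Those of Mrpl44 ran the same way, at -0.11, -0.20 and -0.07. Mrpl14, Mrpl46 and Mrpl45 had 1 probe set each, so no second reading of them was at hand.

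The mice differed more by array than by label. Null 5 was the highest of the 10 arrays in 33 of the 72 members (45.8%), and in 66 it lay above the gene's mean. The median deviation from the gene's mean was 0.143 in null 5. In the other null arrays it was -0.0724, -0.0205, -0.0421 and -0.0595 for null 1 to 4, and in wild type 1 to 5 it was -0.0385, 0.0252, 0.0204, 0.0382 and -0.00399. Null 5 therefore stood above every other array, and null 1, 3 and 4 lay below every wild type array and null 2 below all but wild type 1. All genes with a mean of at least 5 had medians of -0.0507, -0.0299, -0.0331 and -0.0647 in null 1 to 4, so these arrays were low there too. The order also depended on the scaling. After median centring wild type 2 (-0.0479) lay below null 1, 2 and 3, and after quantile normalization null 1 to 4 (-0.0112 to 0.0247) lay above wild type 2, 3 and 4 (-0.0665 to -0.0348). Null 4 was the highest array for no member, a count of 0, and the lowest for 15 (20.8%), against 4.8% and 20.4% of all genes with a mean of at least 5. After quantile normalization it was the highest for 6 members. Wild type 2 was the highest for 13 members (18.1%), against 23.8% of all genes with a mean of at least 5. Among the 52 members with such a mean, null 4 was the lowest for 17.3% and wild type 2 the highest for 23.1%.

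The height of null 5 was shared with other genes of brighter signal. Among all genes with a mean of at least 5, null 5 was the highest array for 27% and its median deviation was 0.105. For the 52 members with such a mean these values were 40.4% and 0.143, and over all 12393 genes they were 15.5% and 0.00803. For the 42 proteins of the cytosolic ribosome, which makes all other proteins of the cell, these values were 54.8% and 0.142. The 80 nuclear-encoded subunits of the respiratory chain and ATP synthase, the partners of the proteins that the mitochondrial ribosome makes, had 26.2% and 0.0517. Within the mitochondrial ribosome the values were 54.2% and 0.211 for the small subunit and 43.5% and 0.129 for the large subunit. After median centring null 5 was highest for 30 members (41.7%, median deviation 0.133), and after quantile normalization for 20 (27.8%, 0.0654). Under quantile normalization it was highest for 13.1% of all genes with a mean of at least 5, at a median deviation of -0.0136. The markers of excitatory neurons deviated by a median of 0.20 in null 5, -0.62 in null 4 and 0.54 in wild type 2, and their part in these values was not tested.

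**Figure D4:**
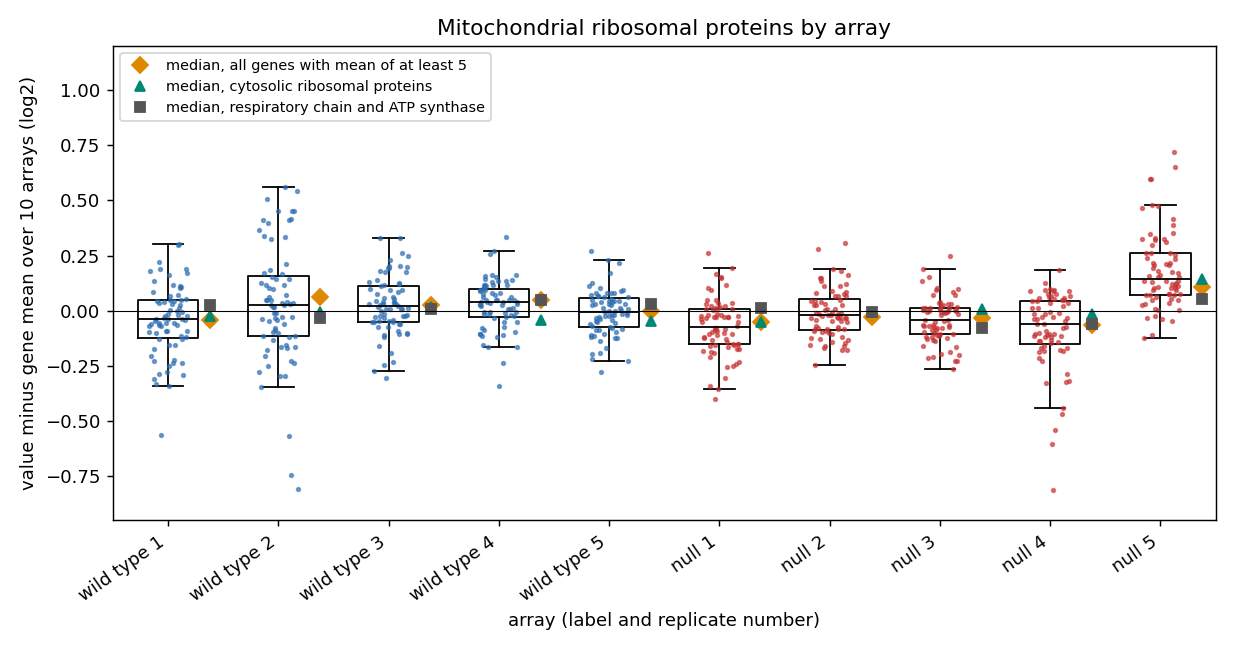
Deviation of each of the 72 mitochondrial ribosomal proteins from its own mean over 10 arrays (log2, y axis) in each array (x axis; wild type blue, null red); boxes show median and quartiles, whiskers reach to 1.5 times the quartile range, and symbols give the medians of comparison lists. Null 5 has the highest box, with a median of 0.143, and the lowest single points are Mrps24 in null 4 (-0.81) and Mrpl49 (-0.81) and Mrpl23 (-0.75) in wild type 2.

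Leaving out null 5 changed the count of lower members. Null 5 is singled out for being high in these same members, so its removal lowers the null mean in most of them. The calls made without it are therefore no independent evidence of a difference. In the remaining 9 arrays, 6 members were lower at an unadjusted limma p under 0.05, namely Mrpl39, Mrpl40, Mrpl45, Mrpl51, Mrps24 and Mrps33, and 1 was higher, Mrpl14. Over all genes the share lower at this threshold was then 5.96% and the share higher 1.71%. The groups of 3 members did not overlap, Mrpl14 higher and Mrpl39 and Mrpl45 lower, where 0.88% of all genes lay wholly higher and 1.47% wholly lower. Mrpl39, which is specific to mitochondria and is named after its values were seen, as is Mrpl40, read 7.87, 7.84, 7.94, 7.89 and 7.82 in wild type 1 to 5 and 7.73, 7.67, 7.61, 7.71 and 8.15 in null 1 to 5. Its difference was -0.10 with all arrays and -0.19 (SE 0.04) without null 5. That of Mrpl40, also specific to mitochondria, was -0.04 and -0.13 (SE 0.05). The lowest adjusted p of a member without null 5 was 0.661.

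The proteins next to the mitochondrial ribosome in function were read from lists of their own, and none of their genes passed an adjusted limma p of 0.05, a count of 0. Of 5 ribosomal proteins with other symbols, 4 were measured, 2 with a difference above 0 and 2 below, among them Ptcd3, an RNA-binding protein of the small subunit (-0.10, SE 0.08), and Dap3, its GTP-binding protein (-0.06, SE 0.07). Of 13 translation factors, 6 were measured, 4 above 0 and 2 below. Mtif2, the initiation factor, had a difference of -0.37 (SE 0.18), and Mtfmt, which formylates the initiator methionine, one of -0.08 (SE 0.06). Of 17 aminoacyl-tRNA synthetases of mitochondria, 8 were measured, 5 above 0 and 3 below, including Pars2 for proline (0.15, SE 0.07) and Iars2 for isoleucine (-0.23, SE 0.12).

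Of 21 assembly factors of the mitochondrial ribosome, 17 were measured, 7 above 0 and 10 below, with Mrm3, a methyltransferase of its large RNA, at 0.10 (SE 0.07) and Rpusd4, a pseudouridine synthase, at -0.08 (SE 0.06). All 11 measured genes of the 13 for mitochondrial transcription and RNA handling had differences below 0, with a median of -0.12. Tfb2m, a transcription factor of the mitochondrial genome, was the 1 gene of these with an unadjusted limma p under 0.05 (-0.17, SE 0.07), against 2.61% of all genes, and Pnpt1, an RNA-degrading enzyme, had a difference of -0.07 (SE 0.04). Wild type 2 was the highest array for 7 of these 11 genes (63.6%), against 23.8% of all genes with a mean of at least 5 and 27.3% of all genes. Of 10 genes for quality control and insertion at the inner membrane, 9 were measured, 1 above 0 and 8 below, with Letm1 at -0.21 (SE 0.11) and the protease Yme1l1 at -0.51 (SE 0.36). The 42 cytosolic ribosomal proteins had 27 differences above 0 and 15 below (median 0.04). At an unadjusted limma p under 0.05, 1 of them (2.38%) was higher, against 1.33% of all genes. The 80 subunits of the respiratory chain and ATP synthase had 30 above and 50 below (median -0.02). At this threshold 4 of them (5%) were lower, against 2.61% of all genes. In either direction, 6.52% of all genes with a mean of at least 5 passed it.

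Features of the members that the rule did not use were also read, and none of the promoter letters was in most of their windows. The members lie on 17 chromosomes, with the most, 11, on chromosome 11, where the share of all genes was not counted. In the RefSeq table of GRCm38.p6, 63 of the 72 genes had a promoter entry, in 66 windows of 300 bases. The NRF-1 letters were in 21.2% of these windows, against 10.6% of the 12449 windows of protein-coding genes on the array and 6.25% of all 32851 promoters. The ETS letters were in 33.3%, against 14% and 8.86%, and the YY1 letters in 10.6%, against 2.31% and 1.4%. TATAAA was in 6.06%, against 9.74% and 13.6%, and CCAAT in 42.4%, against 37.1% and 37.4%. The median GC content of the members' windows was 58.33%, against 59% for protein-coding genes on the array and 52.67% for all.

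An arrangement like that of Mrpl46 and Mrps11 was common. Of the members' windows, 34.8% overlapped the window of a gene on the opposite strand, against 13.8% for protein-coding genes on the array and 10.8% for all promoters, and 21 members had such a neighbour. Both genes were measured in 15 of these cases, and the differences had the same sign in 10, with Mrpl46 and Mrps11 counted from either side. An example is Mrpl49 (0.17, SE 0.16) with Fau (0.08, SE 0.13), a protein of the cytosolic ribosome. The Mrpl49 difference rested on wild type 2, which read 5.19 where the other arrays read 6.02 to 6.19. Another is Mrpl47 (-0.10, SE 0.10) with Ndufb5 (-0.02, SE 0.08), a subunit of the respiratory chain. These differences were about as large as their SE or smaller. Mrpl14 (0.23) and its neighbour Tmem63b (-0.14, SE 0.10) had opposite signs.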

How the data were processed

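Cerebral cortex RNA of 10 mice was measured on 1 Affymetrix mouse expression array each. The authors made the deposited log2 values with GC-RMA (version not given in the sources used here), which uses probe sequence to remove background, puts arrays on a common scale and combines the probes of a set, so low signals are compressed. Groups came from the sample labels, 5 arrays each. The sources do not say which arrays were littermates.

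Of 22690 probe sets, 64 controls were left out and 22626 tested. The platform annotation gave 1 gene for 20380, several for 691 and none for 1555, and 20351 matched the gene table of GRCm38.p6, which was used for names, chromosomes and gene order. The difference between labels, null minus wild type, was estimated by limma 3.58.1 (lmFit, eBayes) in R 4.3.3 without further normalization, filter or block, and adjusted by Benjamini-Hochberg over all probe sets. The fit was also run on simulated data with independent noise for each probe set, no array effects and planted changes larger than any member's difference. That run does not show how the fit handles array effects or differences as small as those here. Exact permutation was applied to the RNA integrity values and to members with an unadjusted limma p under 0.05 or no overlap, without adjustment. The number of arrays limits the precision.

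Named members were the 10 with the smallest p, the 4 brightest and 4 dimmest, the 3 with the largest and the 3 with the smallest pooled SD at a mean of at least 5, those on chromosome 7, the Mrps18 genes, and those with probe sets of opposite sign more than 0.3 apart. From each list of related genes the 2 with the smallest p were named. Neighbouring genes of members were named for their position. The members and lists were chosen with earlier results of these data known. Subunit and ancestry classes and the related lists were written from general knowledge of the mitochondrial ribosome. Promoter windows came from RefSeq. Protein sequences were not used here. The alternatives were a replicate block, median centring, quantile normalization, an intensity trend with robust prior, a floor at 4, array weights, leaving out means under 5, the methods' t-test, the mean of all probe sets of a gene, no _x_at or _s_at probe sets, and each array left out in turn.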

Additional observations from a re-analysis of the deposited data

Results flagged for a closer look

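In groups of 5 arrays, 4 named members had a single array far from the others of its group, as did the members as a whole, among 56 groups examined. Chance sets apart about 1 in 20 such groups. Mrpl23 was low in wild type 2, at 5.96, with the next value at 6.73. Mrpl51 was high in null 5, at 10.10, with the next at 9.74. Mrps24 was low in wild type 1, at 5.42, with the next at 5.87. Mrps26 was high in wild type 2, at 9.12, with the next at 8.64. The median deviation of the 72 members from their means was high in null 5, at 0.143, with the next null array at -0.0205.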

How the results depend on the processing

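The count of members past an adjusted p of 0.05 was 0 under every alternative run. The median difference of -0.02 turned to 0.02986 after quantile normalization, which also turned the lead of lower genes over all genes (334 higher and 221 lower, against 165 and 323), and its range was -0.03925 to 0.003626 when each array was left out, above 0 without null 4. The 2 higher members at an unadjusted p under 0.05 became 1 with the replicate block, with median centring and with means under 5 left out, 3 with quantile normalization (Mrpl14, Mrpl46 and Mrps23, the last at a limma p of 0.0454), and 1 to 3 when each array was left out. The 0 lower members became 1 with median centring, 2 with array weights and 0 to 6 when each array was left out, with 6 without null 5 and 1 without wild type 1. The 1 member without overlap became 0 with median centring, with quantile normalization and with means under 5 left out (Mrpl14 itself is below 5), and 1 to 3 when each array was left out, with 3 without null 5 and 2 without wild type 5. The cause was not tested.

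With the replicate number as a block, Mrpl14 had a limma p of 0.0088 and Mrpl46 of 0.0568, so 1 member was higher at an unadjusted p under 0.05, 0 were lower, 0 passed the adjusted threshold, and the median difference was -0.02099. Same-numbered arrays correlated in their deviations from the group means at 0.457, 0.0757, 0.0474, 0.0824 and 0.0717 for numbers 1 to 5, so the numbers were not taken as pairs.

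Of 519 recomputed differences of named members, 504 kept their direction and 15, in 7 genes, changed sign. None passed an adjusted p of 0.05, with all arrays or under an alternative. The unadjusted limma p moved across 0.05 in 16 of them, in 8 genes, 7 to above it (all Mrpl46) and 9 to below it. Quantile normalization gave -0.002863 for Mrpl38, 0.03038 for Mrpl4 and 0.03483 for Mrps12. Array weights gave -0.04056 for Mrpl38, and the mean of all probe sets 0.007692 for Mrpl51. When each array was left out, the range was -0.03353 to 0.03709 for Mrpl38 (below 0 without wild type 2, wild type 5 or null 5), -0.1014 to 0.05142 for Mrps12 (above 0 without wild type 2, wild type 4, null 2 or null 3), -0.05366 to 0.09749 for Mrps18a (below 0 without wild type 3), -0.2637 to 0.0212 for Mrpl18 and -0.1395 to 0.008421 for Mrps18c (both above 0 without null 4). With the floor at 4, the 61 members not wholly at the floor were read. Dim signal limits the 20 members with a mean under 5.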
